A study of Homo sapiens with 6 samples.

Results

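The AP-1 and immediate early genes examined here are 10 genes chosen by symbol from the raw count table. They are the FOS family (FOS, FOSB, FOSL1 and FOSL2), the JUN family (JUN, JUNB and JUND), and EGR1, IER2 and IER3. All 10 had a row among the 16229 gene symbols of the table, and all 10 passed the filter on low counts. The study sequenced RNA from 6 libraries of a colorectal cancer line labelled MC38, wild type in genotype. The 3 GCA libraries came from cells kept with GCA for 24 hours, and the 3 CON libraries from cells kept without it. The series title names glycocholic acid, a conjugated bile acid, and GCA is read as that compound. The sources used here state no dose. MC38 is known as a mouse line, but the labels call the organism human, and the processing notes name hg38. The GCA columns are titled fa, so every GCA value rests on the treatment label of those samples. Nothing in the labels says that replicates were separate cultures, so the p-values speak to the spread among these libraries alone, which may be technical.

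FOS and JUN proteins are basic leucine zipper (bZIP) transcription factors. A JUN protein pairs with itself or with a FOS protein to form AP-1, which binds the TRE element in promoters and enhancers, and FOS proteins need a JUN partner to bind DNA. FOS, FOSB, JUN, JUNB, EGR1, IER2 and IER3 are immediate early genes: growth factors or stress switch them on within minutes through kinase cascades, without new protein synthesis, and their mRNAs decay fast. FOSL1 (FRA-1) and FOSL2 (FRA-2) respond later and lack the strong activation domain of FOS, while JUND is known for steadier expression than JUN.

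Promoters of 8 of the 10 genes (all but FOSL1 and IER3) were found in the RefSeq promoter table (GRCh38.p14), and they share a sequence feature that did not enter the choice of genes. The 5 letters TGACG, the core of the CRE element to which CREB and ATF proteins bind, were present on either strand in the 250 bases before the start of all 8. In the same window they were found in 21.7% of all 27305 promoters and in 27.4% of the 12797 whose gene is in the count table. The windows of the 8 were rich in G and C, from 62% in JUN to 74.8% in JUND. These backgrounds were not matched for that content, so the part it plays in the difference was not tested. The full CRE, TGACGTCA, which contains the core on both strands, was found in 1 of the 8 (JUND) against 1.77% of all promoters. The JUN-type TRE, TGACATCA, was found in JUN alone (2.45% of all). Within these 250 bases the CArG box, the site of serum response factor, was found in EGR1 alone, in 2 places (1.14% of all). Sites farther upstream were not searched, so the other genes may have one there. The TATA box, searched as TATAAA on the gene's strand, was found in FOS, FOSB and JUNB (7.17% of all). The consensus TRE, TGAGTCA, was in none of the 8 windows (4.16% of all). Both strands were searched for every motif except the TATA box, and a match is a description of these letters only. The promoters of 4 genes that the results below turn on are printed 5′ to 3′ on the gene's strand, with matches in capitals: JUND (chr19:18281623-18281872, minus strand), FOSL2 (chr2:28392608-28392857, plus strand), JUN (chr1:58784048-58784297, minus strand) and EGR1 (chr5:138465229-138465478, plus strand).
JUND: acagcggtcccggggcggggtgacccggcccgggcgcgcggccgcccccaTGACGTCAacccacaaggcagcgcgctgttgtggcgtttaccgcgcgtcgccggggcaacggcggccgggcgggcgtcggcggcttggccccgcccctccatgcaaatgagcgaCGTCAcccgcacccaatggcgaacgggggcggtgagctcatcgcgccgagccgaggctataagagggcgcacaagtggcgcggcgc
FOSL2: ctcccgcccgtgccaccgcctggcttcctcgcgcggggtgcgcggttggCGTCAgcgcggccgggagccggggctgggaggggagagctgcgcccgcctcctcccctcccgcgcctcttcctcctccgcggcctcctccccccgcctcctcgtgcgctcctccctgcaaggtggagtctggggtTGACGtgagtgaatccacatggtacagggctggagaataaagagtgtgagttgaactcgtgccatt
JUN: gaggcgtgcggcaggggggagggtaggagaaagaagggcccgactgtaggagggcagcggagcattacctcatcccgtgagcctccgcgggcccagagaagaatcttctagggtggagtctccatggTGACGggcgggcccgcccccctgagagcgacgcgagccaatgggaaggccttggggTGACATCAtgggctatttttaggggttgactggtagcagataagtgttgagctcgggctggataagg
EGR1: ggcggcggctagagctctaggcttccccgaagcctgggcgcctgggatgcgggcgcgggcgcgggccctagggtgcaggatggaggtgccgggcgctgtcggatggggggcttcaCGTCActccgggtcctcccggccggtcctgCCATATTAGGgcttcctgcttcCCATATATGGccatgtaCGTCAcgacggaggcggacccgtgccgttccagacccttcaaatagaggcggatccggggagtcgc

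**Figure D1:**
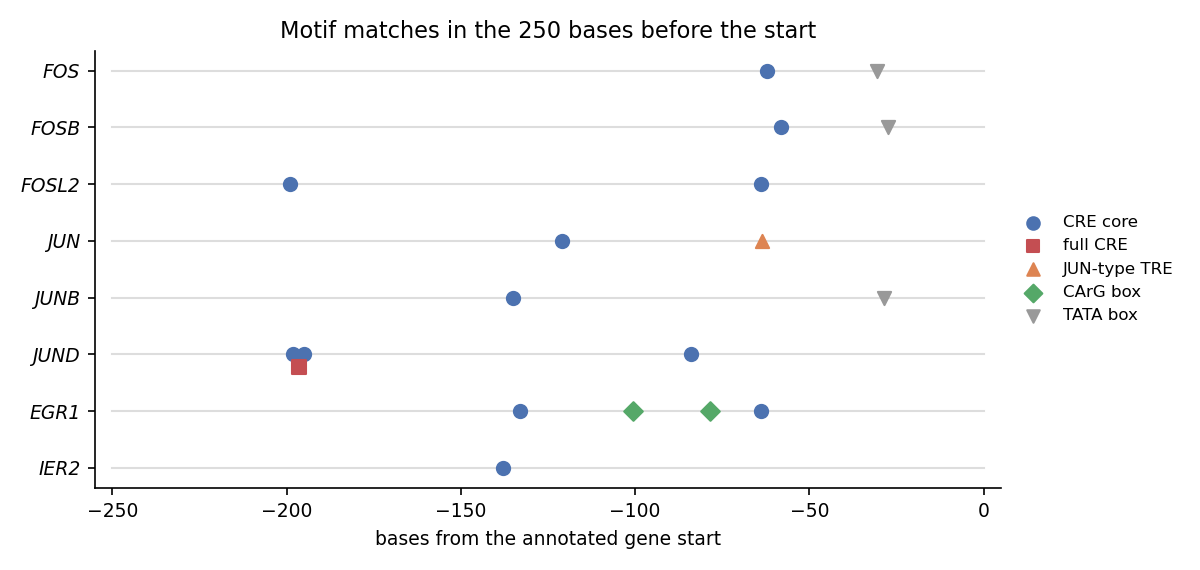
Positions of motif matches in the 250 bases before the annotated start of 8 genes, in bases from the start on the x axis. Every gene has at least 1 CRE core (circles), EGR1 has 2 CArG boxes and JUND alone has a full CRE.

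In the GENCODE release 29 annotation JUN, JUNB, JUND and IER2 have a single exon, a structure seen in 2.87% of the 15783 annotated genes of the table. The pentamer ATTTA, the core of the AU-rich elements that mark unstable mRNAs, occurred in the 3′ untranslated region of 9 of the 10 genes, with IER2 the exception. FOSL2 had 9 copies, IER3 had 6, FOS had 5, and FOSB and JUN had 3 each. Of 15556 genes with such a region 66.4% had at least 1 copy and 38.9% at least 3, so presence alone did not set the 10 genes far apart from the rest. The transcripts of all 10 were richer in G and C than the median of the table (50.4%), from 52.6% in FOS to 69.7% in JUND.

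Total counts per library ran from 18057453 to 20531612, and counts of the 10 genes from 60 (FOSB) to 18674 (IER3). CON 1 stood apart from CON 2 and CON 3 on the second principal component (34.5 against -14.7 and -17.8, with 18.1% of variance). GCA 1 stood apart from GCA 2 and GCA 3 on it to a lesser degree (8.1 against -5.78 and -4.33). Across genes the fold changes correlated with GC content (Pearson's r = 0.485 over genes, which are not independent replicates), so each change below was also computed after a GC content and length correction. The correction takes no account of group, so it removes a GC-linked or length-linked difference between GCA and CON whatever its source. Whether that trend is technical or an effect of GCA was not tested. Corrected values are therefore an alternative and not a better estimate. Epithelial markers summed to 7920 to 10112 CPM (counts scaled by TMM library sizes) in CON against 11133 to 12705 CPM in GCA. KRT8 and KRT19, keratin genes, led that list. KRT8 rose by 0.50 (log2, adjusted p = 0.0301) but not with the correction (0.16, adjusted p = 0.309), and KRT19 had 0.17 (adjusted p = 0.355), which turned to -0.30 with the correction (adjusted p = 0.0522, and 0.0342 with the replicate block as well). CEACAM5 was the only one of 10 epithelial markers under 1 CPM in every library. Leukocyte markers summed to 27.9 to 32.3 CPM in CON against 32.1 to 42 CPM in GCA. Fibroblast and endothelial markers summed to 12 to 13.3 against 16.9 to 18.6 CPM. Cardiomyocyte markers, listed because the extraction protocol speaks of heart, summed to 23.5 to 26.8 against 37.2 to 42.4 CPM. In each of these 3 lists 5 of 7 genes were under 1 CPM in every library. CORO1A and CD68, VWF and COL1A1, and TNNI3 and MYL2 led them. CORO1A (1.16), VWF (1.43), TNNI3 (0.68) and COL1A1 (0.44) rose, the last 2 not with the correction (0.14 and 0.11), and CD68 and MYL2 stood at -0.29 and -0.73 (adjusted p = 0.273 and 0.135). The part of these markers in the results below was not tested.

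The 10 genes moved in both directions. JUN, JUND and FOSL2 were higher in GCA, EGR1 and FOSL1 were lower, and FOS, FOSB, JUNB, IER2 and IER3 did not pass the test (edgeR's quasi-likelihood test, Benjamini-Hochberg adjustment over 12604 genes, threshold 0.05, n = 3 per group). That is 5 of 10, where 36.4% of all tested genes passed, 18.3% higher and 18.1% lower. In bulk RNA, fewer cells with a transcript and less of it per cell cannot be told apart. The median log2 fold change of the 10 was 0.26, against -0.04 over all tested genes. CPM values of the groups did not overlap in 6 of the 10 (3 higher, 3 lower), where this held for 48.5% of all tested genes (24.1% higher, 24.3% lower). With the GC content and length correction FOSL2 was higher and FOSL1, EGR1 and IER2 were lower, where 28.8% of genes passed (13.2% higher, 15.6% lower), and the median of the 10 was -0.04. With the replicate number as a block the same count of members passed, 3 higher and 2 lower, where 41% of genes passed (20% higher, 21% lower). With block and correction together 1 was higher and 4 were lower, where 34.1% of genes passed (15.5% higher, 18.6% lower).

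**Figure D2:**
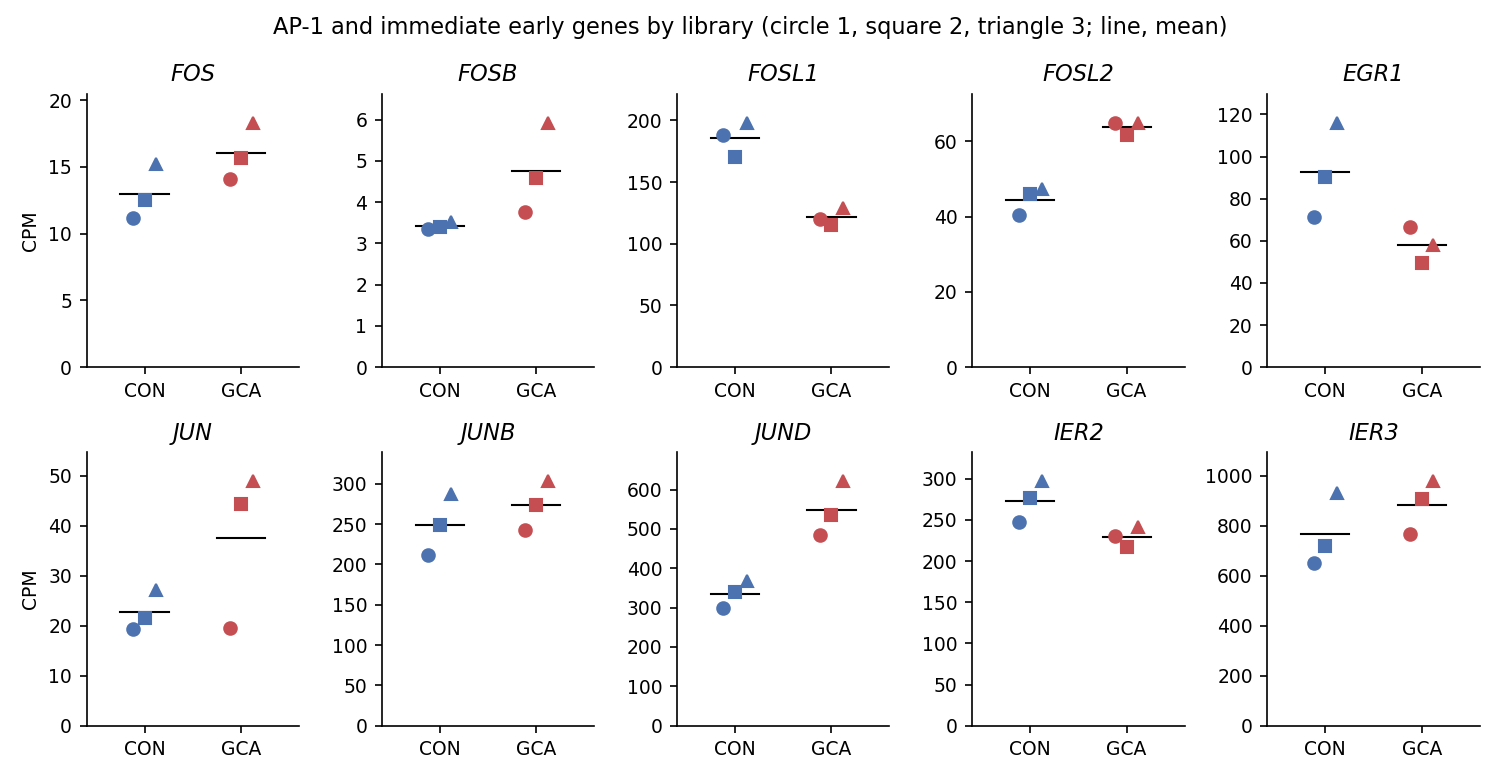
CPM of each gene in the 3 CON and 3 GCA libraries (y axes start at 0 and differ between panels; lines are group means). FOSL2, JUND and FOSB lie wholly higher and FOSL1, EGR1 and IER2 wholly lower in GCA, though FOSB and IER2 did not pass the test. The JUN value of GCA 1 lies among the CON libraries.

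Of the FOS family, FOSL1 (chromosome 11, 65892049 to 65900545, 4 exons) had the highest FPKM and was the only one that fell. FOSL1 stood at 188, 170 and 198 CPM in CON 1 to 3 and at 120, 115 and 129 CPM in GCA 1 to 3. Every GCA library lay below every CON library. The change was -0.61 ± 0.12 on the log2 scale (SE; adjusted p = 0.00199), and -1.01 ± 0.10 with the GC content and length correction (adjusted p = 0.000187). FOSL1 kept its call under all 20 alternatives, with log2 fold changes from -1.01 to -0.54.

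FOSL2 (chromosome 2, 28392858 to 28417317, 4 exons), whose product FRA-2 is related to FRA-1, moved the other way. Its values were 40.3, 46.0 and 47.3 CPM in CON against 64.9, 61.6 and 64.9 CPM in GCA. The groups did not overlap, and the GCA libraries differed by no more than 1.05-fold. FOSL2 rose by 0.52 ± 0.11 (log2, adjusted p = 0.00427) and by 0.49 with the correction (adjusted p = 0.00274). It lost its call under 1 of 20 alternatives, limma on unfiltered log2(FPKM + 1) (adjusted p = 0.0521).

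FOS, the prototype immediate early gene, stood at 11.2, 12.5 and 15.2 CPM in CON against 14.1, 15.7 and 18.3 CPM in GCA. The groups overlapped. The log2 fold change was 0.31 ± 0.17 (adjusted p = 0.162) and 0.22 with the correction (adjusted p = 0.356), and no alternative brought it past the threshold. FOSB, which also gives rise to the stable splice form known as delta FOSB, had the lowest level of the 10, with 3.34, 3.39 and 3.52 CPM in CON against 3.77, 4.58 and 5.92 CPM in GCA. All GCA values of FOSB lay above all CON values, but the change of 0.47 ± 0.23 did not pass the test (adjusted p = 0.115). With the correction it was 0.23 (adjusted p = 0.443). It passed without replicate 1 of both groups (0.62, adjusted p = 0.0186), where 58.5% of all genes passed.

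In the JUN family JUND rose, with a size that depended on the correction. JUND (chromosome 19, 18279694 to 18281622, 1 exon) stood at 298, 340 and 367 CPM in CON against 485, 535 and 621 CPM in GCA. The lowest GCA library lay above the highest CON library. The change was 0.71 ± 0.14 on the log2 scale (adjusted p = 0.00209), a 1.63-fold rise. JUND has the highest GC content of the 10, 69.7%, and with the GC content and length correction its log2 fold change was 0.12 ± 0.14 (adjusted p = 0.542; 2.61e-07 to 0.542 over its alternatives). The 2 alternatives with that correction were the only ones of 20 under which the JUND call was lost.

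JUN (chromosome 1, 58780791 to 58784047, 1 exon), the founding AP-1 subunit, was the most variable of the 10 within GCA. It had 19.3, 21.5 and 27.2 CPM in CON against 19.5, 44.4 and 48.9 CPM in GCA. GCA 1 lay among the CON libraries, while GCA 2 and GCA 3 lay above all of them. The change of 0.73 ± 0.26 on the log2 scale passed narrowly (adjusted p = 0.0453). It did not pass under 12 of 20 alternatives, among them limma-voom (0.63, adjusted p = 0.103), the GC content and length correction (0.51, adjusted p = 0.216), and leaving out CON 1 (adjusted p = 0.0722), CON 2 (0.0899), GCA 2 (0.178) or GCA 3 (0.237). Without GCA 1 it was 1.06 (adjusted p = 0.00166).

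JUNB, which can restrain JUN on some targets, did not pass the test. Its values were 212, 249 and 287 CPM in CON against 243, 274 and 303 CPM in GCA. The groups overlapped and the log2 fold change was 0.14 ± 0.14 (adjusted p = 0.476). With the correction it turned to -0.39 (adjusted p = 0.0906), and with the correction and the replicate number as a block it was -0.36 (adjusted p = 0.027).

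Transcript levels per length (FPKM, counts scaled by library total and gene length) set the subunits side by side. In CON, JUND (177 ± 28.5 FPKM, SD, n = 3), JUNB (139 ± 28.0) and FOSL1 (111 ± 9.98) were the main AP-1 transcripts. JUN (7.12 ± 1.6), FOS (6.28 ± 1.28), FOSL2 (5.17 ± 0.746) and FOSB (0.921 ± 0.0785) stood far below them. The FPKM of FOSL2, and its share below, rest on a deposited length of 8787 bases, against 6708 for its GENCODE transcript. Its place beside FOS depends on that length. IER2 likewise has a deposited length of 2110 bases against 2934 for its GENCODE transcript, and its place beside FOSL1 depends on that length. IER3 was the highest of the 10 at 634 ± 150 FPKM, IER2 lay at 132 ± 19.7 and EGR1 at 30.3 ± 8.71. The order of the means was the same in GCA, from IER3 (704 ± 84.8) through JUND (279 ± 34.6), JUNB (147 ± 16.1), IER2 (107 ± 5.13), FOSL1 (70.3 ± 3.78), EGR1 (18.2 ± 2.62), JUN (11.4 ± 4.80), FOS (7.50 ± 0.973) and FOSL2 (7.14 ± 0.167) to FOSB (1.24 ± 0.280). Ranges of neighbours in this order overlapped in CON from JUND through JUNB and IER2 to FOSL1, and in both groups from JUN through FOS to FOSL2. In GCA the ranges of JUND, JUNB, IER2, FOSL1 and EGR1 were all separate on the deposited lengths. For IER2 and FOSL1 this rests on the length taken for IER2.

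The main transcript of each family held a share that did not overlap between the groups. The FOS family summed to 114, 119 and 136 FPKM in CON and to 84.2, 82.7 and 91.8 FPKM in GCA. FOSL1 made up 91.1%, 89.2% and 89.6% of that sum in CON and 82.4%, 81.2% and 81.2% in GCA. On counts not divided by length the difference in FOSL1 share was -16.2 percentage points in place of -8.37, and the FOS family sum changed by -0.302 in place of -0.511 on the log2 scale. The share of FOSL2 went from 4.21% ± 0.451 (SD) to 8.30% ± 0.373, and that of FOS from 5.08% ± 0.612 to 8.68% ± 0.769. In the JUN family, JUND made up 55.9%, 55.3% and 53.5% of the summed FPKM in CON and 64.4%, 62.9% and 64% in GCA. JUNB went from 42.9% ± 1.10 to 33.7% ± 0.603, and JUN held 2.19% ± 0.148 and 2.54% ± 0.871. The groups did not overlap in either sum or in the shares of FOSL1 and JUND, and each of these 4 gave p = 0.10 in a two-sided exact permutation test, the smallest that 3 against 3 libraries allow. The sums and shares are built from the gene values already tested above, mostly FOSL1 in the FOS family, and add no separate evidence. Shares within a family are tied, so a lower FOSL1 share raises those of FOS and FOSL2.

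With the GC content and length trend of each library removed, an alternative chosen after the data were seen, the FOS family sum was still lower in GCA (78.0 against 138 on the corrected scale). FOSL1 then held 90.9% in CON and 79.8% in GCA, and JUND 55.6% and 63.1%, again without overlap. The JUN family sum went from 386 to 368 and the groups overlapped (exact permutation p = 0.80). The groups were therefore apart in both shares on either scale, and in the JUN family sum on one scale only. The ratio of JUND to FOSL1, chosen after the values were seen, was 1.40, 1.77 and 1.63 in CON and 3.56, 4.10 and 4.23 in GCA. That its groups lay apart follows from the separate values of JUND and FOSL1 and adds no evidence to them. With the trend removed the ratio was 1.52 to 1.84 in CON against 3.49 to 3.87 in GCA. The ratio of FOSL2 to FOSL1, chosen in the same way and with the same limit, went from 0.0468 ± 0.00548 to 0.102 ± 0.00398, and from 0.0412 to 0.115 with the trend removed.

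**Figure D3:**
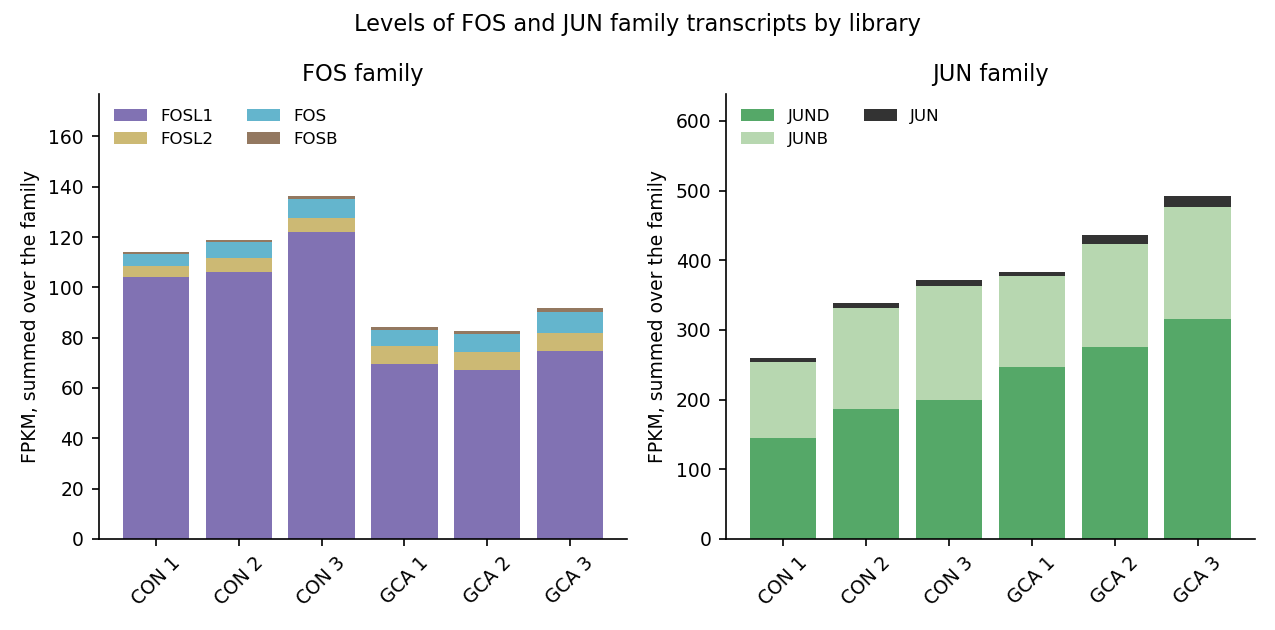
FPKM of the FOS family (left) and the JUN family (right) stacked by gene in each library, from 0. The FOSL1 block is shorter in all 3 GCA libraries and the JUND block is taller, while FOS, FOSL2, FOSB and JUN stay thin in both groups.

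EGR1, a zinc finger transcription factor switched on by serum response factor, was lower in GCA. EGR1 (chromosome 5, 138465479 to 138469303, 2 exons) stood at 71.4, 90.5 and 116 CPM in CON against 66.6, 49.4 and 58.1 CPM in GCA. The groups did not overlap, although CON 1 lay only slightly above GCA 1. EGR1 fell by 0.67 ± 0.17 (log2, adjusted p = 0.00851), and by 0.85 with the correction (adjusted p = 0.00494). The call was lost without GCA 2 (-0.57, adjusted p = 0.0563) and on unfiltered log2(FPKM + 1) (adjusted p = 0.0689).

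IER2, a short-lived nuclear regulator, stood at 247, 277 and 297 CPM in CON against 231, 217 and 241 CPM in GCA. The groups did not overlap, but the log2 fold change of -0.25 ± 0.12 did not pass (adjusted p = 0.123). It passed with the correction (-0.68, adjusted p = 0.00342) and without CON 1 (-0.32, adjusted p = 0.00961), the latter where 52.6% of all genes passed. IER3, known for modulating apoptosis and ERK signalling, stood at 650, 719 and 933 CPM in CON against 769, 907 and 978 CPM in GCA. The groups overlapped, the log2 fold change was 0.20 ± 0.16 (adjusted p = 0.33), and its sign turned with the correction (-0.20, adjusted p = 0.458).

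**Figure D4:**
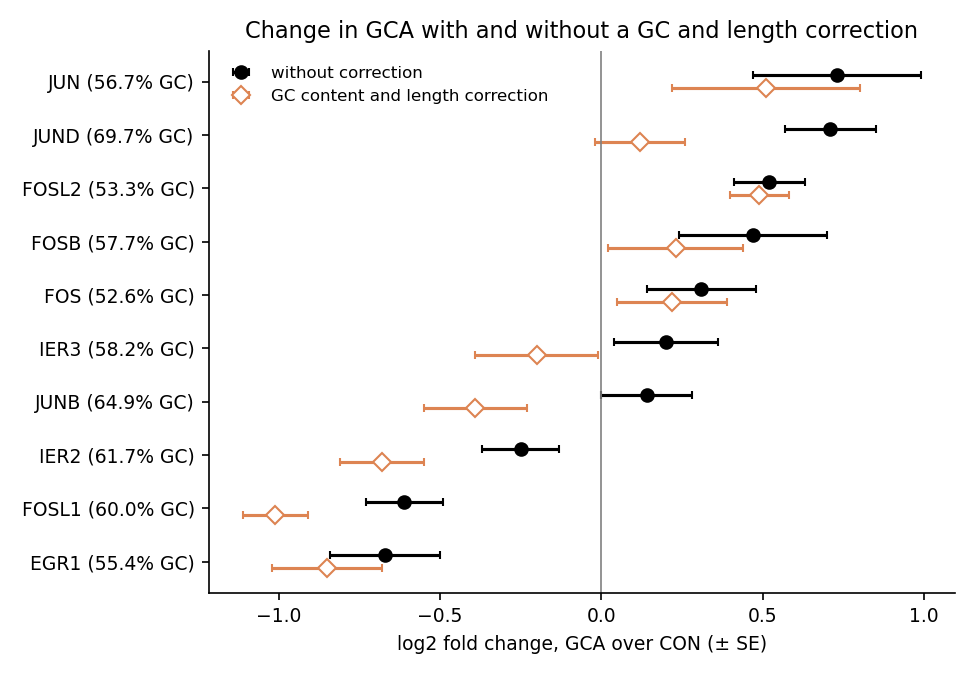
Log2 fold change of GCA over CON with its SE for each gene, without (filled) and with (open) the GC content and length correction, with the GC content of the transcript in brackets. JUND moves from 0.71 to 0.12 and FOSL1 from -0.61 to -1.01, while FOSL2 stays at about the same place.

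The spread within groups differed from gene to gene. The SD of log2 CPM had a median of 0.18 over the 10 in CON and 0.18 in GCA, against 0.19 and 0.15 over all tested genes. JUN in GCA had an SD of 0.73, larger than that of 99.2% of tested genes, and its highest library held 2.51 times its lowest. EGR1 had the largest SD of the 10 in CON, 0.35. FOSB in CON (0.04) and FOSL2 in GCA (0.04) were the tightest. The genes also shared their place within a group: CON 3 was the highest CON library for all 10 and CON 1 the lowest for 9, with FOSL1 the exception, where CON 3 was the highest and CON 1 the lowest for 30.8% and 48.6% of all tested genes. GCA 3 was highest for 9 of 10, with EGR1 the exception, and GCA 1 lowest for 6 of 10, against 30.3% and 37.7% of tested genes. The 10 genes are therefore not 10 separate observations of a library.

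Genes around AP-1 were read from 4 lists, described by counts and medians beside the 36.4% of genes that passed overall. Among bZIP partners and relatives 2 of 13 tested genes rose, 4 fell and 7 did not pass; their median log2 fold change was -0.22, and -0.07 with the correction (1 higher, 4 lower). ATF3, a stress-induced factor that pairs with JUN proteins, fell by 1.13 ± 0.16 (adjusted p = 0.000259), and DDIT3, which encodes the stress factor CHOP, fell by 2.14 ± 0.39 (adjusted p = 0.00122). DDIT3 varied widely within CON, with 14.3, 31.7 and 56.9 CPM against 5.06, 8.65 and 9.58 CPM in GCA. Without CON 3 its log2 fold change was -1.55. BATF2, a partner of JUN proteins without an activation domain of its own, rose from 2.32 ± 0.526 to 6.60 ± 0.682 CPM (log2 1.51 ± 0.23, adjusted p = 0.000395). MAFF, a small MAF protein gene, rose by 0.55 (adjusted p = 0.00747). BATF2 held its call with the correction (1.19, adjusted p = 0.00285), and MAFF did not (0.20, adjusted p = 0.29).

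Of 32 other immediate early genes 7 rose, 5 fell and 20 did not pass, with a median of -0.06. IER5L went from 532 ± 41.1 to 956 ± 79.1 CPM (log2 fold change 0.85 ± 0.13, adjusted p = 0.000473). CSRNP1, which encodes a nuclear protein, rose by 0.77 ± 0.13 (adjusted p = 0.000865). With the correction these stood at 0.37 and 0.49 and still passed (adjusted p = 0.0343 and 0.0161). The Krüppel-like factor genes KLF10, a TGF-beta response gene, and KLF2 fell, with log2 fold changes of -0.69 and -0.54 (adjusted p = 0.00273 and 0.00295), and -0.45 and -1.01 with the correction. Over all tested genes 18.3% were higher and 18.1% lower, so movement in both directions was not particular to this list. With the correction 5 of 32 rose and 7 fell, where 13.2% of all genes were higher and 15.6% lower.

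Among 20 upstream regulators 3 rose and 6 fell, with a median of -0.32. MAPK3, which encodes the kinase ERK1, rose from 108 ± 12.5 to 170 ± 1.63 CPM (log2 0.66 ± 0.12, adjusted p = 0.00135), and MAP2K2, which encodes its activator MEK2, rose by 0.52 (adjusted p = 0.00542). RPS6KA5, which encodes the chromatin kinase MSK1, fell by 0.89 (adjusted p = 0.00735), and MAP2K4, which encodes a kinase upstream of JNK, fell by 0.58 (adjusted p = 0.00736). None of these 4 passed with the GC content and length correction (0.23, 0.04, -0.46 and -0.26; adjusted p from 0.0574 to 0.738). Of the 20 genes 1 then rose and 2 fell, where 28.8% of all genes passed (13.2% higher, 15.6% lower), and the median of the list was -0.15. With the correction and the replicate block MAPK3 passed (0.23, adjusted p = 0.0442), and the other 3 did not. MAPK3 and MAP2K2 are rich in G and C (61.8% and 65.5%), RPS6KA5 and MAP2K4 poor (38.3% and 42.0%). Leaving out CON 2, CON 3 or GCA 3 took the list to 5, 5 and 4 calls, and leaving out CON 1 to 14. The share of all genes that passed moved the same way, to 23.8%, 26.7%, 20.6% and 52.6%.

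Among 15 tested textbook AP-1 targets 3 rose and 3 fell, with a median of -0.19. PLAU, the gene of the urokinase protease, had 803, 1254 and 1497 counts in the CON libraries against 3684, 4049 and 4345 in the GCA libraries, without overlap. It rose by 1.72 ± 0.18 (log2, adjusted p = 3.02e-05), and by 1.64 with the correction. The EGF receptor ligand genes EREG and AREG fell: EREG from 469 ± 100 to 177 ± 28.2 CPM (-1.41 ± 0.17, adjusted p = 0.000105) and AREG from 592 ± 205 to 241 ± 15.1 CPM (-1.30 ± 0.21, adjusted p = 0.000585). Both held with the correction (-1.04 and -1.18; adjusted p = 0.00129 and 0.00629). TIMP1, a metalloprotease inhibitor gene, rose by 0.52 (adjusted p = 0.00488) but not with the correction (0.05, adjusted p = 0.824). The list went to 10 calls without CON 1, where 52.6% of all genes passed.

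**Figure D5:**
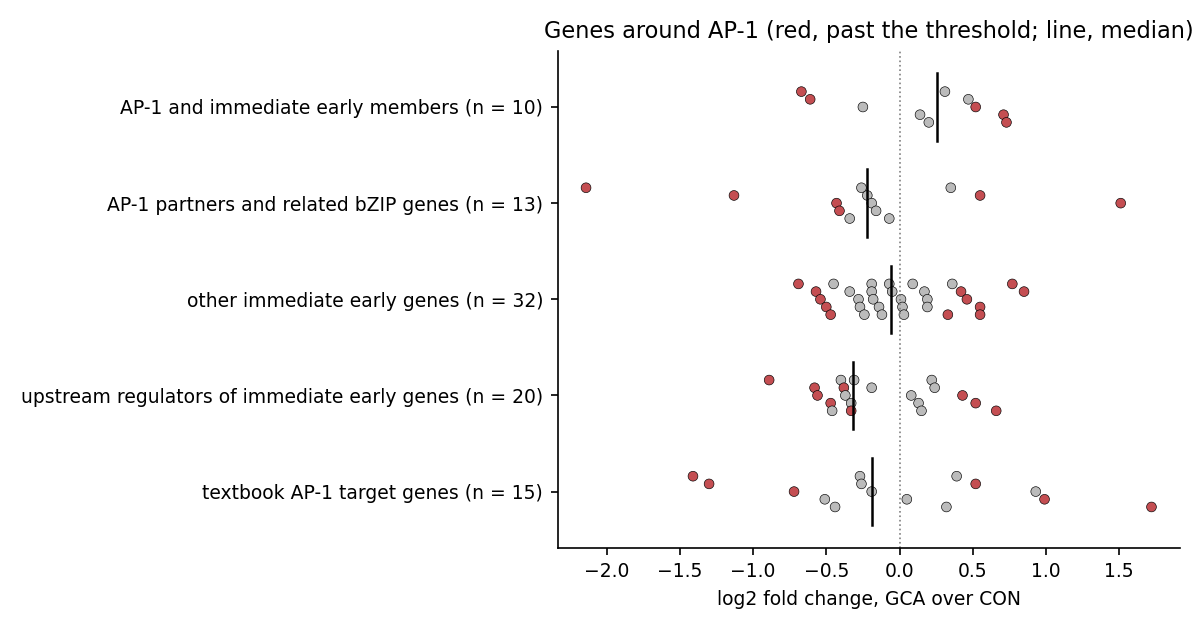
Log2 fold change of GCA over CON for the 10 genes and for the tested genes of 4 lists around AP-1, with genes past the threshold in red and the median as a line. Each list holds genes on both sides of 0, and DDIT3 (-2.14) and PLAU (1.72) lie farthest out.

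For the members with the lowest p, FOSL1 and JUND, the genes with the most similar pattern were sought among 11365 other tested genes, as the root mean square difference of log2 CPM standardised over the 6 libraries (0 is the same pattern). CHAC1, a glutathione-degrading enzyme gene (0.0811), POLR3D, an RNA polymerase III subunit gene (0.0901), and MTMR1, a phosphoinositide phosphatase gene (0.11), were nearest to FOSL1. Their log2 fold changes were -1.17 (adjusted p = 8.03e-05), -0.42 (0.0117) and -0.25 (0.121). With the correction these were -1.53 (adjusted p = 2.55e-05), -0.30 (0.043) and -0.03 (0.876). Standardising removes the size of a change, so the search could not match genes by size. HLA-B, an MHC class I gene (0.0548), TMEM59L (0.0665) and FXYD5, a sodium pump regulator gene (0.0681), were nearest to JUND, with 0.77, 1.09 and 0.56 (adjusted p from 0.000282 to 0.00436). HLA genes share sequence, so the value of HLA-B is uncertain. With the correction HLA-B stood at 0.38 (adjusted p = 0.112; 0.40 and 0.0147 with the replicate block as well) and FXYD5 at -0.00 (adjusted p = 0.994), while TMEM59L stood at 0.55 (adjusted p = 0.0471).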

How the data were processed

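The members and lists were chosen with earlier results of these data known. The authors deposited raw counts per gene symbol, and a table of FPKM values that equal each count divided by the library total and a single length per gene (relative tolerance 1e-09, 16229 of 16229 genes). Per the submitters' processing notes, the tools were HTSeq 0.11.2, HISAT2 2.2.1.0 and fastp 0.20.1, with hg38. The sources used here give no annotation or strand setting, so reads of antisense genes could be counted with their partners. Per the labels, the kit was a stranded total RNA kit with ribosomal depletion, while the molecule is given as polyA RNA. Groups come from the treatment label, and columns were matched to samples by title.

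Counts were tested with edgeR 4.0.16 in R 4.3.3 (TMM, filterByExpr with minimum count 10 and minimum total 15, glmQLFit, glmQLFTest, Benjamini-Hochberg at 0.05). The code was run on simulated counts with 200 genes changed. Those counts held no GC trend and no replicate effect, so the check does not cover either. The SE is the log2 fold change divided by the square root of F. CPM uses TMM-scaled library sizes. The GC content and length correction removed, per library, a spline trend (5 degrees of freedom each) of log2 CPM (prior count 2) on GENCODE release 29 transcript GC content (99.08% of genes) and deposited length, as an offset. Other alternatives were 3 normalizations, 2 filters, DESeq2 1.42.0, limma-voom (limma 3.58.1), leaving out libraries, the replicate block, and limma on FPKM values after log2 with a pseudocount of 1 or 0.1. Locations come from RefSeq GRCh38.p14. Named genes were the 10 members, the 4 lowest p of each list, the 2 most abundant of each marker list and the 3 genes most like each of the 2 members with the lowest p.

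Within groups the chi-square per gene was 20.2 to 45.8 for pairs with replicate 1. It was 4.87 (CON) and 6.49 (GCA) for replicates 2 and 3. Thus no pair met the criterion for 1 library deposited again, agreement within counting noise. This does not show that the libraries came from separate cultures. Same-numbered libraries of the groups deviated together across genes (r = 0.206, 0.137 and 0.104, each over the limit of 0.1). Other pairs ran from -0.172 to 0.0954. By that rule the numbers pair the samples, but 0.104 and 0.0954 are hardly apart, so the pairing is not settled. The data, not the labels, are its source. The reported tests do not use it, and the replicate block was run only as an alternative. Counts of the 10 genes were 60 or more in every library, which keeps them well above a floor of 3 counts.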

Additional observations from a re-analysis of the deposited data

How the results depend on the processing

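Over 40 named genes and 20 alternatives, 724 of 800 log2 fold changes kept direction and side of the threshold, 58 lost a call and 11 gained one, and 7 turned sign. All 7 used the GC content and length correction: JUNB (-0.39, and -0.36 with the replicate block), IER3 (-0.20 and -0.16), KRT19 (-0.30 and -0.30) and FXYD5 (-0.00). The JUN family sum also turned, to -0.0675 on the log2 scale from 0.436, with the GC content and length trend removed. The cause was not tested. The replicate block alone changed no call of the 40 named genes; beside the GC content and length correction it took JUNB, MAPK3, KRT19 and HLA-B past the threshold (adjusted p = 0.027, 0.0442, 0.0342 and 0.0147). With the block alone 5 of the 10 members passed, as without it; 5163 genes passed in all, against 4584. All genes past the threshold numbered 7419 without replicate 1 of both groups, and from 2621 (without GCA 3) to 6707 (without CON 1) when 1 library was left out, with 3029 without CON 2. Of the 10 members, 2 passed on unfiltered log2(FPKM + 1) (21.6% of all genes), 7 without replicate 1 of both groups (58.5%), and 3 (without GCA 2; 25.4%) to 5 when 1 library was left out. On unfiltered log2(FPKM + 1), 3 bZIP partners (6 as reported) and 6 other immediate early genes (12) passed. The latter ran from 7 (without GCA 2) to 15 (without CON 1) when 1 library was left out. Upstream regulators went from 9 to 3 with the correction (28.8% of all genes passed), and to 4 with the replicate block as well (34.1%). They went to 17 without replicate 1 of both groups (58.5%). They ran from 4 (without GCA 3) to 14 (without CON 1) when 1 library was left out. AP-1 targets went from 6 to 12 without replicate 1 of both groups (58.5%), and to between 4 and 10 when 1 library was left out. Of all genes 36.4% passed as reported, 20.6% without GCA 3 and 52.6% without CON 1, so swings with a library left out are not particular to the lists. The fall of the upstream regulators with the correction, from 9 of 20 to 3, was steeper than that of all genes, 36.4% to 28.8%.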
